A study of Rattus norvegicus with 11 samples.

Results

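The 10 genes described here make elastic fibres or cross-link their proteins: Eln, Fbn1, Fbln1, Fbln5, Emilin1, Mfap4, Mfap5, Lox, Loxl1 and Loxl2. They were chosen by gene symbol, and all 10 were among the 18507 genes of the deposited expression table. RNA sequencing had been done on bladder tissues of adult female Sprague-Dawley rats with partial bladder outlet obstruction (PBOO, labelled BOO in the sample records) and on bladder tissues labelled normal. PBOO was made by a suture tie around bladder neck and urethra, and the control rats had only a cut in the abdominal wall that was closed again. The tissues were taken at week 4, with 3 PBOO and 3 normal samples, and at week 5, with 2 PBOO and 3 normal samples. All columns of week 4 are named as input. At week 5 the columns of the normal samples are named as adult and those of the PBOO samples as DO. The kind of name thus goes with week and, at week 5, with group. The study describes the samples as biological replicates, and a PBOO sample of week 5 was left out for its quality before sequencing. Levels are in FPKM, a level scaled to transcript length and to the number of mapped fragments, so that genes can be compared with each other. In bulk tissue, fewer cells of a type and less RNA per cell cannot be told apart.

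Elastic fibres let a stretched bladder wall recoil. Their core is elastin, secreted as the soluble protein tropoelastin and laid down on a scaffold of fibrillin microfibrils, with fibulins, EMILIN-1 and microfibril-associated proteins taking part in the assembly. Lysyl oxidases are copper enzymes that oxidise lysines of elastin and collagen, after which the chains cross-link and become insoluble. In the bladder, smooth muscle cells and fibroblasts are the main producers of these proteins.

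The 250 bases before the transcription start were at hand for 4 of the 10 genes, Loxl1, Fbn1, Fbln5 and Mfap5, in RefSeq (rat assembly GRCr8). Those of Loxl1 and Fbn1, whose levels were higher in every PBOO sample of week 4, and of Fbln5, whose levels were lower in every one, are given to set genes with opposite differences side by side. They are read 5′ to 3′ on the strand of the gene. Capitals mark matches to letters taken for the TEAD motif (GGAATG) or the SMAD motif (CAGACA). Both strands were read, so that a match on the other strand appears as the reverse complement. TEAD and SMAD factors act in the Hippo and TGF-beta pathways. The windows lie at chr8:67612225-67612474 (minus strand) for Loxl1, chr3:133203391-133203640 (minus strand) for Fbn1 and chr6:126742707-126742956 (minus strand) for Fbln5.
Loxl1: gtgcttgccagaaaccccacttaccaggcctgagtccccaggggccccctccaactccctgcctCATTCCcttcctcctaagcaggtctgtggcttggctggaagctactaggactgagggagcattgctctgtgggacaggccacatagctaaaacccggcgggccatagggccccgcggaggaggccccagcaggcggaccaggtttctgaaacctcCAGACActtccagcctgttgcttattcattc
Fbn1: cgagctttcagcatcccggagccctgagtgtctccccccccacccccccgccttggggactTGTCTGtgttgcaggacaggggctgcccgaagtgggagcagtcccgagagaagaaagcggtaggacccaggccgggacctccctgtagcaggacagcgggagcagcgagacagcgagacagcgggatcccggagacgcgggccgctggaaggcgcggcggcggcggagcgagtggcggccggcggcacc
Fbln5: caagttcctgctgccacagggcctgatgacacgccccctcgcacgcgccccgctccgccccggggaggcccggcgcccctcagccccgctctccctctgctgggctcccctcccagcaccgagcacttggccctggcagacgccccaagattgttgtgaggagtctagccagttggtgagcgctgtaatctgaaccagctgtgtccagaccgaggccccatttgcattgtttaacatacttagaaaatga
Loxl1 held a SMAD match 31 to 26 bases before its start and a TEAD match 186 to 181 bases before it. Fbn1 held a SMAD match 189 to 184 bases before its start. Neither motif occurred with all its letters in Fbln5 or Mfap5. The shorter letters CAGAC, without the last A, do occur in the Fbln5 window, and they were not searched over all promoters. Of all 33469 rat promoters of this length, 17.2% held the SMAD letters and 12.1% the TEAD letters. The AP-1 motif (TGACTCA, in 4.05% of all promoters), the TATA motif (TATAAA, 12.9%) and the CArG box (1.5%) had no match in the 4 windows. The GC content of the 4 windows was 60.4% for Loxl1, 71.2% for Fbn1, 63.2% for Fbln5 and 51.6% for Mfap5, beside a median of 51.2% over all promoters. A match of letters is a description and not a binding site.

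In normal bladder tissues of week 4, Fbln1 had the highest mean level of the 10 genes (170.1 FPKM) and Lox the lowest (4.85 FPKM). Between them came Mfap5 (87.6 FPKM), Fbln5 (62.6 FPKM), Mfap4 (26.6 FPKM), Eln (25.9 FPKM), Loxl1 (16.9 FPKM), Fbn1 (16.4 FPKM), Emilin1 (14.4 FPKM) and Loxl2 (9.87 FPKM). Neighbours in this order were separated, with no overlap of their samples, between Fbln5 and Mfap4, between Eln and Loxl1, between Emilin1 and Loxl2 and between Loxl2 and Lox; the other neighbours overlapped. At week 5 the order in normal tissues again ran from Fbln1 (59.6 FPKM) to Lox (2.11 FPKM). Only Fbln1 and Fbln5, and Loxl2 and Lox, were then neighbours without overlap. Mfap5 stood in place 2 at week 4 and in place 7 (11.3 FPKM) at week 5. Since the kind of column name goes with week, this cannot be told apart from a difference between library sets. In PBOO tissues every pair of neighbours overlapped in both weeks.

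**Figure D1:**
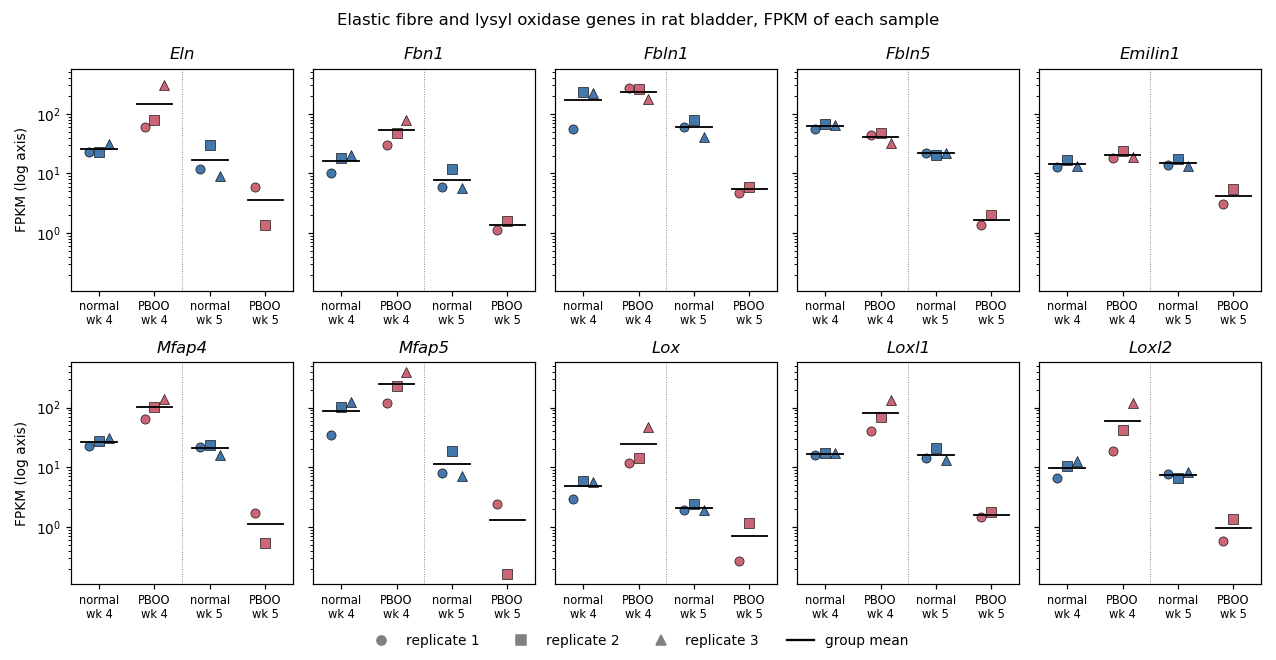
FPKM of the 10 genes in every sample on a log axis, with normal samples in blue, PBOO samples in red, a symbol for each replicate number and a line at the group mean. At week 4 the PBOO samples sit above all normal samples for 7 genes and below them for Fbln5, and at week 5 they sit below for all 10 genes.

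At week 4, Mfap4, a microfibril gene, was upregulated 3.64-fold in PBOO bladder tissues. It was the only one of the 10 genes that passed the test, which asked for an adjusted p under 0.05 (limma, Benjamini-Hochberg over 11320 genes) and a 2-fold change, and the differences of the other 9 are given as values. Of all genes tested, 0.265% were called higher and 0.106% lower by this rule. At an unadjusted p under 0.05 with the same fold, 7 of the 10 genes were higher (Eln, Fbn1, Mfap4, Mfap5, Lox, Loxl1 and Loxl2) and 0 lower, where 2.46% of all genes were higher and 2.45% lower. In 7 genes (Eln, Fbn1, Emilin1, Mfap4, Lox, Loxl1 and Loxl2) every PBOO sample was above every normal sample, which held for 6.63% of all genes. In 1 gene, Fbln5, every PBOO sample was below, which held for 34.9% of all genes, so that the position of Fbln5 was a common one. Over the 10 genes the log2 fold changes had a median of 1.74, against -0.25 over every gene tested.

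Eln, the gene of elastin itself, stood at 59.2, 79.3 and 307.2 FPKM in the PBOO samples and at 22.9, 23.4 and 31.4 FPKM in the normal samples of week 4. The groups did not overlap, and PBOO replicate 3 was far above the other two. The difference was 4.40-fold (log2 fold change 2.14 ± 0.57, SE), with an adjusted p of 0.0783 (limma). Without PBOO replicate 3 the log2 fold change was 1.42.

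Among the microfibril genes, Fbn1 encodes fibrillin-1, the main protein of microfibrils. Its levels were 30.4, 47.5 and 80.0 FPKM in PBOO and 10.4, 18.3 and 20.6 FPKM in normal tissues, again without overlap. Fbn1 was 3.08-fold higher in PBOO (log2 fold change 1.62 ± 0.39, SE, adjusted p 0.0703, limma). Mfap4, a microfibril-associated glycoprotein that binds elastin and fibrillin, had 64.5, 100.2 and 139 FPKM in PBOO and 22.4, 27.2 and 30.3 FPKM in normal tissues. The lowest PBOO sample was above every normal sample, and the normal samples lay close together. Its log2 fold change was 1.86 ± 0.27 (SE, adjusted p 0.0485, limma), and leaving out any week 4 sample other than PBOO replicate 1 ended this call (adjusted p 0.0848 to 0.213), as did a pseudocount of 0.01 (0.0503), no filter on low values (0.0586), median-ratio scaling (0.0622) and moderation without a trend (0.0825). Mfap5, which encodes another microfibril-associated glycoprotein, MAGP-2, had 117, 232 and 389 FPKM in PBOO and 34.2, 103 and 125 FPKM in normal tissues. PBOO replicate 1 lay within the normal range. The log2 fold change of Mfap5 was 1.52 ± 0.59 (SE, adjusted p 0.133, limma), and it was 0.95 without normal replicate 1.

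The fibulins and Emilin1 differed less. Fbln1, the gene of fibulin-1, a glycoprotein found within elastic fibres and basement membranes, stood at 274, 260 and 176 FPKM in PBOO and 54.7, 234 and 221 FPKM in normal tissues. The groups overlapped, with normal replicate 1 far below the rest. The log2 fold change of 0.71 ± 0.55 (SE, adjusted p 0.371, limma) came down to 0.03 without that sample. Fbln5 encodes fibulin-5, which brings tropoelastin and lysyl oxidase-like 1 to the microfibril, and its levels were 43.7, 48.2 and 32.8 FPKM in PBOO and 55.2, 68.1 and 64.5 FPKM in normal tissues. All PBOO samples were lower, by 1.52-fold (log2 fold change -0.60 ± 0.17, SE, adjusted p 0.0815, limma). Relative to the median of all genes, the difference of Fbln5 was -0.35 on the log2 scale, and its adjusted p under median-ratio scaling was 0.194 (limma). Emilin1, whose protein lies between elastin and microfibrils, had 18.5, 23.8 and 18.5 FPKM in PBOO and 13.0, 17.0 and 13.4 FPKM in normal tissues. Its samples did not overlap either, with a log2 fold change of 0.49 ± 0.16 (SE, adjusted p 0.107, limma).

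None of the 3 lysyl oxidase genes passed the adjusted test at week 4, with differences of 4.20-fold to 4.70-fold that rested in part on PBOO replicate 3. Lox, which encodes lysyl oxidase, had 11.9, 14.3 and 47.9 FPKM in PBOO and 2.95, 5.88 and 5.72 FPKM in normal tissues, a 4.27-fold difference (log2 fold change 2.10 ± 0.54, SE, adjusted p 0.0765, limma). Loxl1, the lysyl oxidase most closely tied to elastin, had 40.3, 68.6 and 131 FPKM in PBOO and 15.8, 17.6 and 17.4 FPKM in normal tissues. Its normal samples were the closest together of the 3 genes, and its log2 fold change was 2.07 ± 0.38 (SE, adjusted p 0.0538, limma). Loxl2, an enzyme that also cross-links basement membrane collagen, had 18.3, 42.2 and 119 FPKM in PBOO and 6.67, 10.3 and 12.6 FPKM in normal tissues. This was a 4.70-fold difference (log2 fold change 2.23 ± 0.63, SE, adjusted p 0.0840, limma). For all 3 genes PBOO replicate 3 was highest and PBOO replicate 1 lowest, and neither group overlapped the other. Without PBOO replicate 3 the log2 fold changes were 1.47 for Lox, 1.63 for Loxl1 and 1.53 for Loxl2, and without PBOO replicate 1 that of Loxl2 was 2.88.

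Single samples of week 4 stood apart across the 10 genes. Normal replicate 1 was the lowest of its group for all 10, and its summed level of 8 fibroblast markers was 729 FPKM, beside 2647 and 2593 FPKM in the other normal samples. The PBOO samples ran in the order replicate 3, 2, 1 for 7 genes, and their summed smooth muscle markers ran in the same order (82470, 62167 and 51104 FPKM). Without PBOO replicate 1, 6 of the 10 genes were called higher (Eln, Fbn1, Mfap4, Lox, Loxl1 and Loxl2), and the calls over all genes rose from 42 to 719. Without any other sample of week 4, 0 were called.

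**Figure D2:**
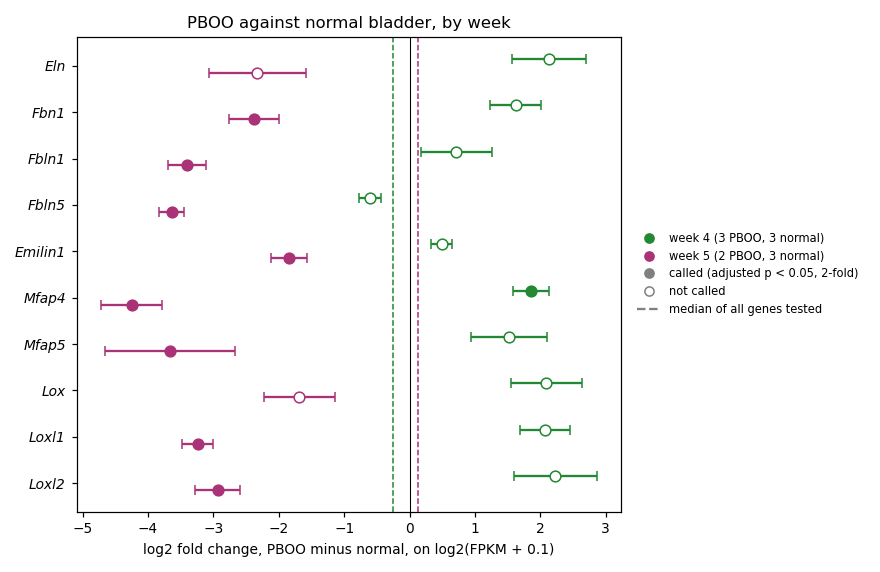
Log2 fold changes of PBOO against normal on log2(FPKM + 0.1) for the 10 genes at week 4 (green) and week 5 (purple), with bars of 1 SE, filled points for called genes and dashed lines at the median of all genes tested. At week 4, 9 genes lie right of 0 and Mfap4 alone is filled, and at week 5 all 10 lie left of 0 and 8 are filled.

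At week 5 all 10 genes were less abundant in PBOO, and 8 of them fell by the test (limma, adjusted p under 0.05 over 13685 genes, with a 2-fold change). These were Fbn1, Fbln1, Fbln5, Emilin1, Mfap4, Mfap5, Loxl1 and Loxl2. Of all genes tested, 11.4% were called lower and 7.91% higher. At an unadjusted p all 10 were lower, beside 12.6% of all genes. In all 10 both PBOO samples lay below every normal sample, which held for 25% of all genes. The median log2 fold change of the 10 genes was -3.09, and that of all genes tested 0.12. Because the kind of column name went with group at week 5, obstruction and library set cannot be told apart there. With a 4-fold change in place of 2-fold, as the study used at week 5, 7 of the 10 passed as lower (all of these but Emilin1), beside 6.73% of all genes.

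Mfap4 had the largest decrease of the 10, with 1.74 and 0.535 FPKM in PBOO and 22.1, 23.9 and 16.2 FPKM in normal tissues. That is 19.1-fold lower (log2 fold change -4.25 ± 0.46, SE, adjusted p 0.00246, limma). The log2 fold change was -3.49 without PBOO replicate 2 and -5.02 without PBOO replicate 1, and both were called. Mfap5 stood at 2.44 and 0.161 FPKM in PBOO and at 7.98, 18.7 and 7.16 FPKM in normal tissues. Its log2 fold change of -3.66 ± 0.99 (SE) passed narrowly (adjusted p 0.0416, limma); without PBOO replicate 1 the change was -5.31, without PBOO replicate 2 it was -2.02 (adjusted p 0.0645), and the call was also lost without any one of the 3 normal samples (0.0918 to 0.119), without the filter on low values (0.0549) and without a trend in the moderation (0.0619). Fbn1 fell 5.21-fold, from 6.05, 12.1 and 5.62 FPKM in normal tissues to 1.13 and 1.60 FPKM in PBOO (adjusted p 0.00835, limma).

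Fbln5, a little lower at week 4, fell 12.5-fold at week 5. Its PBOO samples had 1.36 and 1.99 FPKM, far below the closely spaced normal samples at 22.3, 20.6 and 22.1 FPKM, and its adjusted p was the smallest of the 10 (log2 fold change -3.64 ± 0.19, SE, adjusted p 0.000289, limma). Fbln1 fell 10.6-fold, to 4.75 and 6.03 FPKM from 59.5, 78.3 and 40.9 FPKM (adjusted p 0.00118, limma). Emilin1 changed least of the genes called, 3.58-fold, with 3.04 and 5.39 FPKM in PBOO and 14.0, 17.5 and 13.3 FPKM in normal tissues (adjusted p 0.00651, limma).

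Of the lysyl oxidases, Loxl1 fell 9.47-fold, to 1.44 and 1.74 FPKM from 14.4, 20.9 and 13.2 FPKM (log2 fold change -3.24 ± 0.24, SE, adjusted p 0.000745, limma). Loxl2 fell 7.65-fold, to 0.581 and 1.33 FPKM from 7.58, 6.65 and 8.25 FPKM (log2 fold change -2.94 ± 0.34, SE, adjusted p 0.00310, limma). Lox was at 0.269 and 1.16 FPKM in PBOO and at 1.94, 2.44 and 1.94 FPKM in normal tissues, which did not pass (log2 fold change -1.69 ± 0.55, SE, adjusted p 0.0674, limma). At these low levels the pseudocount mattered for Lox, whose log2 fold change was -0.90 with a pseudocount of 1. Without PBOO replicate 2 it was -2.57 (adjusted p 0.00589, limma), and without PBOO replicate 1 it was -0.80. Quantile normalization brought Lox past the threshold (adjusted p 0.0366, limma).

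Eln did not pass either. It stood at 5.85 and 1.37 FPKM in PBOO and at 12.05, 29.8 and 8.92 FPKM in normal tissues of week 5. Both groups were widely spread, and the log2 fold change was -2.33 ± 0.74 (SE, adjusted p 0.0651, limma). It was -3.34 without PBOO replicate 1 (adjusted p 0.0297, limma), and -1.32 without PBOO replicate 2. With 1 fit over all 11 samples Eln was called (adjusted p 0.0454, limma).

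The effect of obstruction differed between the weeks for all 10 genes by the interaction test over all 11 samples (limma, adjusted p under 0.05), where 13.5% of 11296 genes had a more negative effect at week 5. The difference of the log2 fold changes was called for each, for example for Mfap4 (-6.11, adjusted p 3.75e-05), Loxl1 (-5.31, adjusted p 5.81e-05), Mfap5 (-5.19, adjusted p 0.00819) and Loxl2 (-5.17, adjusted p 0.00132). For Emilin1 it was -2.33 (adjusted p 0.000533, limma). Single samples moved several of these values, although all 10 were called without any one sample. With 1 sample left out the difference ran from -6.83 to -3.54 for Mfap5, the ends being without PBOO replicate 1 and without PBOO replicate 2 of week 5. Without the same samples it was -6.88 and -5.35 for Mfap4, -5.48 and -3.46 for Eln, and -2.90 and -4.67 for Lox. For Loxl2 it was -5.82 without PBOO replicate 1 and -4.47 without PBOO replicate 3 of week 4, for Eln -3.75 and for Lox -3.16 without that replicate 3, and for Fbln1 -3.43 without normal replicate 1 of week 4. The median difference was -4.29 over the 10 genes and 0.35 over all genes. Week went together with the kind of column name, and 4871 genes were listed at 0 in all samples of week 4. Among them were 62 of the 657 genes whose mean at week 5 was 100 FPKM or more. Week and library set thus cannot be told apart, nor can obstruction and library set at week 5. None of the 10 genes was at 0 in any sample.

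The make-up of these transcripts also differed. The share of Fbln5 in the summed FPKM of the 10 genes was 4.66% ± 2.15 (SD, n = 3) in PBOO and 16.0% ± 6.23 (SD, n = 3) in normal tissues of week 4. Eln made up 12.9% ± 7.30 (SD, n = 3) in PBOO and 6.62% ± 2.69 (SD, n = 3) in normal tissues. Its samples overlapped, with 8.73%, 8.65% and, in replicate 3, 21.3% in PBOO and 9.62%, 4.45% and 5.78% in normal tissues. Mfap4 made up 10.03% ± 0.783 and 6.73% ± 2.34 (SD, n = 3 each). At week 5 the share of Emilin1 was 19.4% ± 8.39 (SD, n = 2) in PBOO and 8.51% ± 1.05 (SD, n = 3) in normal tissues, and that of Mfap4 5.09% ± 3.65 and 11.8% ± 1.39. These shares are descriptions without a test.

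**Figure D3:**
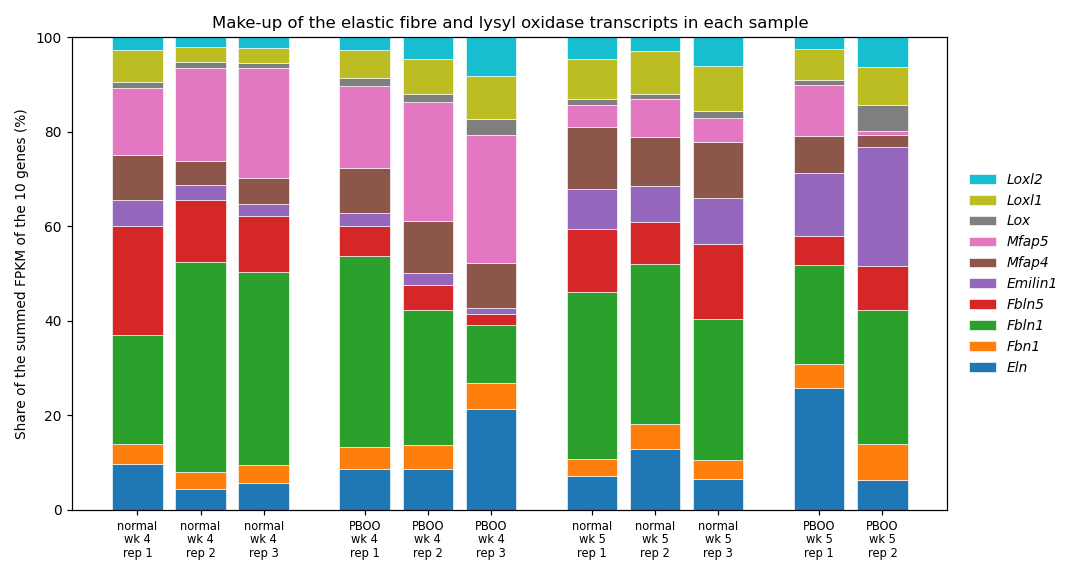
Share of each of the 10 genes in their summed FPKM, as stacked bars that reach 100%, 1 bar per sample. At week 4 the Fbln5 band (red) is wider in the normal samples (mean 16.0%) than in the PBOO samples (mean 4.66%), and at week 5 the Emilin1 band (purple) is wider in the PBOO samples (mean 19.4%).

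The ratios within a sample were taken on FPKM + 0.1. They depend little on how the sample was scaled, except at low levels such as those of Lox at week 5. The log2 ratio of Lox to Eln was -2.48 ± 0.19 (SD, n = 3) in PBOO and -2.44 ± 0.47 (SD, n = 3) in normal tissues of week 4, a difference of -0.04 (exact permutation test, two-sided p 0.9). That of Loxl1 to Eln differed by -0.07 (p 0.8, exact permutation test) and that of Loxl2 to Lox by 0.14 (p 0.7, exact permutation test). These 3 differences were smaller than the larger SD of each ratio, and 3 against 3 samples cannot give a p under 0.1. The log2 ratio of Fbln5 to Eln was -1.46 ± 1.54 (SD, n = 3) in PBOO and 1.28 ± 0.25 (SD, n = 3) in normal tissues, and its difference of -2.74 had the smallest p possible (0.1, exact permutation test). At week 5, where the smallest possible p was 0.2, the differences were 0.64 for Lox to Eln (p 0.8), -0.91 for Loxl1 to Eln (p 0.6), -1.25 for Loxl2 to Lox (p 0.2) and -1.31 for Fbln5 to Eln (p 0.4, exact permutation tests). The difference for Lox to Eln moved to 2.54 or -1.25 when either PBOO sample of week 5 was left out, and that for Loxl1 to Eln to 0.22 or -2.05.

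Across the 11 samples, with each week centred on its mean, the genes most like Eln in log2(FPKM + 0.1) were Pgm1 (Pearson r 0.971), Nrip3 (0.958) and Clic4 (0.939), out of 10682 genes. The nearest of the other 9 genes was Mfap5 (r 0.900, rank 26), and Fbln5 was the least like (r 0.377). Most like Lox were Slc41a2 (r 0.957), Fn1 (0.947) and Loxl2 (0.944). Fn1 encodes fibronectin, which supports the activation of lysyl oxidase. The points share the contrast between PBOO and normal samples, and the correlations are descriptions.

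Of 18 further elastic fibre and microfibril genes, 11 could be tested at week 4, and 0 passed in either direction. Of all genes tested at week 4, 0.265% were called higher and 0.106% lower, so few calls can fall in any list. At an unadjusted p with a 2-fold change 2 of the 11 were higher, and their median log2 fold change was 0.10. Fbln2, Fbln7, Emilin2, Mmrn2, Adamtsl2 and Thsd4 were listed at 0 in all samples of week 4. Ltbp2 belongs by name to the latent TGF-beta binding protein family, and its protein sits on elastic fibres. It was at 1.64 to 15.7 FPKM in PBOO and 0.352 to 0.453 FPKM in normal tissues (log2 fold change 3.49, adjusted p 0.0580, limma). Fbn2, the gene of fibrillin-2, had a log2 fold change of 1.63 (adjusted p 0.0754, limma). Ltbp1 (0.94) and Ltbp3 (0.89), which hold latent TGF-beta in the matrix, had adjusted p-values of 0.0483 each (limma) with less than a 2-fold difference.

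At week 5, 16 of these genes were tested, 8 fell and 1 rose, with a median log2 fold change of -1.06. Adamtsl4, which takes part in fibrillin-1 assembly, fell by 2.80 on the log2 scale. Emilin3 fell by 2.41. Efemp2, the gene of fibulin-4, which links lysyl oxidase to tropoelastin, fell by 2.23, from 33.0 to 33.9 FPKM in normal tissues to 5.89 and 8.46 FPKM in PBOO. Adamtsl2, whose protein binds fibrillin-1, was the gene that rose (log2 fold change 2.39, adjusted p 0.0479, limma).

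Genes that process, bind or supply lysyl oxidases had 1 of 11 called higher at week 4 and 0 lower. That gene was Fn1, at 157 to 449 FPKM in PBOO and 36.9 to 54.9 FPKM in normal tissues (log2 fold change 2.61 ± 0.38, SE, adjusted p 0.0483, limma). Fmod, the gene of fibromodulin, a collagen-binding proteoglycan that interacts with lysyl oxidase, had a log2 fold change of 1.45 (adjusted p 0.0538, limma). At week 5, 4 of 10 fell and 0 rose, with log2 fold changes of -3.32 for Fmod, -2.28 for Loxl3, -2.21 for Pcolce and -1.79 for Fn1. Postn, the gene of periostin, which takes part in the activation of lysyl oxidase, was at 3.76 and 34.5 FPKM in PBOO and 60.2 to 73.6 FPKM in normal tissues and did not pass (log2 fold change -2.52, adjusted p 0.0789, limma). Pcolce encodes an enhancer of the proteinase that trims procollagen. The median log2 fold change of the list was 0.40 at week 4 and -1.36 at week 5.

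The fibrillar collagens, the other substrates of lysyl oxidases, had a median log2 fold change of 0.77 at week 4, where 1 of 8 genes rose and 0 fell. It was Col5a1 (66.4 to 95.7 FPKM in PBOO and 27.5 to 36.6 FPKM in normal tissues, log2 fold change 1.28, adjusted p 0.0483, limma). At week 5, 5 of 7 fell and 0 rose, with a median of -3.16. The log2 fold changes were -4.13 for Col1a2, -3.80 for Col1a1, -3.56 for Col3a1, -3.16 for Col5a1 and -2.89 for Col5a2.

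Of the proteases that can degrade elastin, 0 of 7 passed in either direction at week 4 (0 at an unadjusted p with a 2-fold change), with a median log2 fold change of 0.45. At week 5, 5 of 8 rose and 2 fell, with a median of 1.57. Mmp7, the gene of matrilysin, stood at 285 and 730 FPKM in PBOO and at 0.415 to 0.870 FPKM in normal tissues of week 5 (log2 fold change 9.28 ± 0.46, SE, adjusted p 0.000288, limma). Mmp9, the gene of gelatinase B, was at 1.83 and 36.7 FPKM in PBOO and at most at 0.0211 FPKM in normal tissues (log2 fold change 6.30, adjusted p 0.0149, limma). Mmp12, the gene of macrophage elastase, was at 4.32 and 10.5 FPKM in PBOO and 0.113 to 0.412 FPKM in normal tissues (log2 fold change 4.31, adjusted p 0.00422, limma). The cathepsin genes Ctss (log2 fold change 2.06) and Ctsl (1.08) also rose, while Mmp2 (-2.44) and Ctsk (-1.59) fell.

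Of the genes of protease inhibitors, 0 of 7 passed at week 4 (2 were higher at an unadjusted p with a 2-fold change), with a median log2 fold change of 0.48. The higher ones were Timp1 (log2 fold change 1.71, adjusted p 0.0929, limma) and Serpine2 (1.43, adjusted p 0.101, limma). At week 5, 3 of 7 fell and 0 rose, with a median of -1.05. The log2 fold changes were -1.92 for Timp3, -1.58 for Serpine2 and -1.13 for Timp2. Slpi, the gene of an inhibitor of leukocyte elastase, was higher in both PBOO samples (34.6 and 60.1 FPKM) than in the normal samples (6.69 to 30.1 FPKM) and was the 1 gene higher at an unadjusted p with a 2-fold change (log2 fold change 1.87, adjusted p 0.0840, limma).

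The summed smooth muscle markers were higher in PBOO at week 4 and lower at week 5, as were most of these genes. Other markers of the bladder wall differed by cell type. The part of all these markers in the result was not tested. At week 4 the summed level of 8 smooth muscle markers was 51104 to 82470 FPKM in PBOO and 25511 to 27687 FPKM in normal tissues, and that of the fibroblast markers 2141 to 2280 FPKM in PBOO and 729 to 2647 FPKM in normal tissues. Of these markers 1 of 8 smooth muscle genes and 0 of 6 fibroblast genes were called higher, and Col6a1 and Clec3b were listed at 0. The smooth muscle sum is weighted to its highest genes, such as Actg2 (mean 22070 FPKM in PBOO and 4421 FPKM in normal tissues). Smtn hardly differed, with means of 370 FPKM in PBOO and 364 FPKM in normal tissues. At week 5 the smooth muscle sum was 992 to 1856 FPKM in PBOO and 24777 to 29160 FPKM in normal tissues, and the fibroblast sum 89.0 to 166 FPKM and 854 to 1016 FPKM. All 8 smooth muscle markers fell, with log2 fold changes from -5.70 to -3.90, and 7 of 8 fibroblast markers fell, with the whole list between -3.70 and -1.25. The leukocyte markers had a median log2 fold change of 2.97 at week 5, with 4 of 8 called higher, and a sum of 196 to 1089 FPKM in PBOO and 28.7 to 74.5 FPKM in normal tissues. The urothelium markers summed to 2877 to 3593 FPKM in PBOO and 4856 to 5942 FPKM in normal tissues of week 4, with 0 of 7 called (median log2 fold change -0.73). Their sums overlapped at week 5 (6069 to 6867 FPKM and 5933 to 7288 FPKM), where Krt5 rose (log2 fold change 3.52) and Krt20 (-6.47) and Upk2 (-2.39) fell. Also at week 5, 4 of 6 nerve and glia markers, 4 of 4 striated muscle markers and 1 of 2 mesothelium markers fell. Of the endothelium markers 0 of 6 were called in either direction, with log2 fold changes from 0.34 to 2.22 (median 0.61). Of the adipose markers 0 of 3 were called.

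At week 5, 9 of the 10 genes had log2 fold changes within the range of the fibroblast markers, and Mfap4 lay below it, within the range of the smooth muscle markers. At week 4, Eln, Fbn1, Mfap4, Lox, Loxl1 and Loxl2 lay above the range of the fibroblast markers (0.16 to 1.56), and Fbln5 lay below it. The smooth muscle markers ranged from 0.02 to 2.27 at week 4, and 9 of the 10 genes lay within that range. Per 100 FPKM of fibroblast markers, a measure chosen after the values were seen, the 10 genes together had 29.8, 40.2 and 67.3 FPKM in PBOO and 32.6, 19.8 and 20.9 FPKM in normal tissues of week 4. At week 5 they had 25.4 and 12.8 FPKM in PBOO and 18.9, 22.7 and 16.1 FPKM in normal tissues. The groups thus overlapped in both weeks on this measure, at week 4 through normal replicate 1 alone. With Col6a1 and Clec3b at 0 in week 4, the fibroblast sums of the weeks are unlike, and the measure is read within a week. Per 1000 FPKM of smooth muscle markers the 10 genes had 13.3, 14.7 and 17.5 FPKM in PBOO and 8.60, 20.3 and 21.3 FPKM in normal tissues of week 4. At week 5 they had 12.2 and 21.5 FPKM in PBOO and 6.20, 9.32 and 4.72 FPKM in normal tissues, with both PBOO samples higher.

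**Figure D4:**
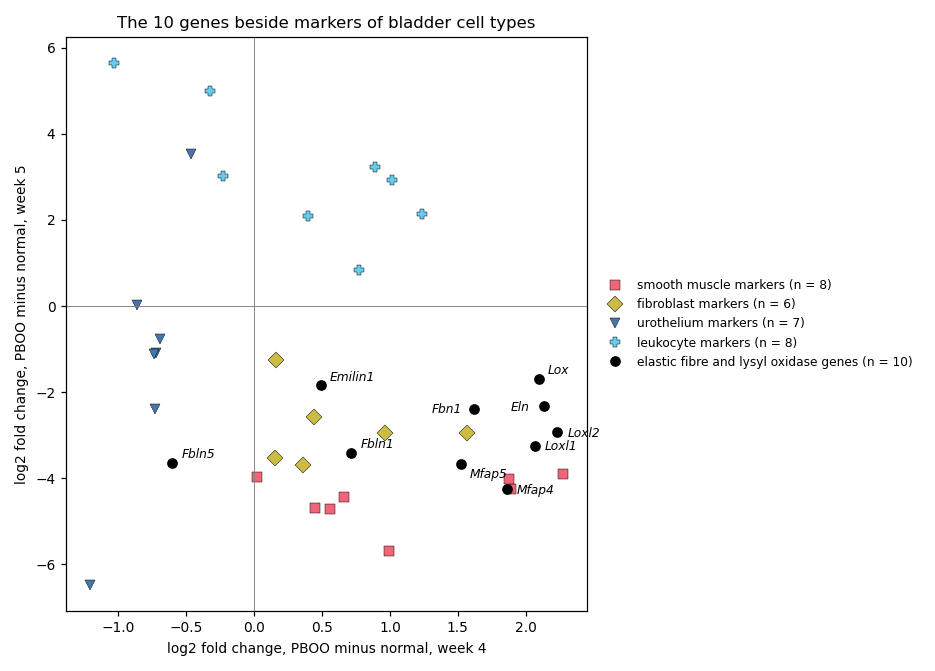
Log2 fold change of PBOO against normal at week 4 (horizontal) and week 5 (vertical) for the 10 genes (black) and for markers of smooth muscle, fibroblasts, urothelium and leukocytes that were tested in both weeks. At week 5 the 10 genes lie between -4.25 and -1.69, beside the fibroblast markers, and at week 4 they reach from -0.60 to 2.23.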

How the data were processed

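The deposited table, made by the authors, holds FPKM values of 18507 genes in 11 columns, and 0 columns were left unused. Columns were assigned to groups from the sample records. The authors name TruSeq libraries read in pairs on a HiSeq4000, HISAT2, StringTie, featureCounts and DESeq2. The submitters' processing notes name mm10, a mouse build, for these rat samples. Annotation and strand of counting are not given in the sources used here, so that reads of Eln, Fbn1, Fbln1 and Lox cannot be told apart from those of a lncRNA or, for Lox, a pseudogene that overlaps each in RefSeq.

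Values were compared as log2(FPKM + 0.1) with limma 3.58.1 in R 4.3.3 (lmFit, eBayes with a trend), in each week apart, for genes averaging 0.5 FPKM or more over the samples compared. The interaction was fitted over all samples. Calls took an adjusted p under 0.05 and a 2-fold change in both weeks, whereas the study used a 4-fold change at week 5; that fold was added as an alternative after the data were seen. The authors' DESeq2 test needs counts, which the table does not hold. Fold changes are on this log scale and understate those of low genes. Low values were searched for steps of whole reads by the share of ratios between samples at the commonest value. At week 4 this share was 1.30% to 1.86%, and 1% to 1.90% after shuffling. At week 5 it was 1.22% to 1.86%, above the shuffled 0.676% to 0.938% in every pair. These small shares gave no depth, which is unknown. Steps were tested on simulated data.

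The 10 genes and all lists were chosen with earlier results of these data known. Named are the 10 genes, from each other list up to 4 genes with the largest change at either week (mean of at least 1 FPKM), any called gene where 5 or fewer were called in a direction, and for Eln and Lox the 3 genes of highest r. Fbn2, Ltbp1, Ltbp3 and Efemp2 were named after their values were seen. Alternatives were other pseudocounts (0.01 and 1), filters, scalings, moderation without a trend, a replicate block, 1 fit over all samples, unadjusted p and leaving out each sample. Figures were drawn with matplotlib 3.10.9.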

Additional observations from a re-analysis of the deposited data

Results flagged for a closer look

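The effect of obstruction differed between the weeks for each of the 10 genes by the interaction test (limma, adjusted p 2.27e-05 to 0.00819). Of all 11296 genes tested, 13.5% were called with a more negative effect at week 5. The kind of column name went with week and, at week 5, with group, so library set cannot be told apart from either. The log2 effect at week 5 minus that at week 4 was -4.47 for Eln, -4.005 for Fbn1, -4.12 for Fbln1, -3.04 for Fbln5, -2.33 for Emilin1, -6.11 for Mfap4, -5.19 for Mfap5, -3.78 for Lox, -5.31 for Loxl1 and -5.17 for Loxl2. For 9 of them the log2 fold change was above 0 at week 4 and below 0 at week 5. Fbln5 was below 0 in both weeks, with -0.60 at week 4 and -3.64 at week 5.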

How the results depend on the processing

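No log2 fold change of the 10 genes changed sign under any alternative run, and the interaction was called for all 10 under each. At week 4 the number called higher was 1, and it was 0 with a pseudocount of 0.01, no filter on low values, median-ratio scaling or no trend, 2 with a mean of at least 2 FPKM (Loxl1 added, adjusted p 0.0485, limma), 5 with 1 fit over all samples, 7 with unadjusted p, and 0 to 6 with samples left out. Median-ratio scaling moved the all-gene median from -0.25 to -0.01 and the split at unadjusted p from 278 higher and 277 lower to 410 and 121. Calls over all genes at week 4 were 42, and 0 to 719 with samples left out (719 without PBOO replicate 1), 0 with no filter, median-ratio scaling or no trend, 80 with quantile normalization, 114 with a mean of at least 2 FPKM, 242 with 1 fit over all samples and 555 with unadjusted p. The replicate block gave 3 of the 10 genes at week 4 (Fbn1 and Mfap5 added, adjusted p 0.0438 each, limma) and 55 over all genes. Same-numbered samples of week 4 correlated with r 0.15, -0.02 and 0.23 in their deviations, and not every sample correlated best with its own number, so the numbers were not taken to pair the samples. At week 5 the number called lower was 8, and 7 to 9 with samples left out, 7 with no filter or no trend (Mfap5 lost), 9 with quantile normalization (Lox gained) or 1 fit over all samples (Eln gained), 7 with a 4-fold change (Emilin1 lost) and 10 with unadjusted p. Calls over all genes at week 5 were 2637, 1679 without normal replicate 1 and 1337 with a 4-fold change. With samples left out, the log2 ratio difference at week 5 ran from -1.25 to 2.54 for Lox to Eln and from -2.05 to 0.22 for Loxl1 to Eln. Where week 5 PBOO kept 1 sample, its spread was assumed to be like that of the normal samples. The depth of the samples is unknown.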
